A study of Ricinus communis with 6 samples.

Results

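In the fifth internode of castor bean (Ricinus communis), 24 of 18875 measured genes were low in the libraries D2 and L1 and high in the other 4, whichever variety those came from. The genes were chosen on these same values: the lowest of D1, D3, L2 and L3, plus 1 FPKM, had to be at least 2.5 times the highest of D2 and L1, plus 1 FPKM. FPKM is a fragment count scaled to transcript length and to the mapped fragments of the library, so levels of different genes can be set side by side per length. Because the rule used these values, the gap between the 4 libraries and the other pair is a description and was not tested. With the libraries exchanged, the same rule took 284 genes that were high in D2 and L1.

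Poly(A) RNA was sequenced from field-grown plants at the stage of fast growth, with 8 to 10 leaves, in 3 libraries of each of 2 varieties. D1 to D3 are from the dwarf, short-stalk variety 071113 and L1 to L3 from high-stalk plants of Zhuansihao (Zhansihao in the labels). The labels name no treatment of either. About 6 plants were dissected for the tissue, but which of them went into which library is not stated, so p-values measure the spread between libraries, which may in part be technical.

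D2 and L1 correlated more with each other than with the libraries of their own varieties, and the variety labels were kept as given. In its own comparison of the varieties the study kept L1. It left D2 out, because D2 correlated poorly with its group and to match its metabolome data, where D2 was also left out. In a separate hormone assay, not analysed here, the L1 value was called an outlier and replaced by the mean of L2 and L3. What sets D2 and L1 apart from the other libraries was not tested. Across 16236 genes, Pearson's r of log2(FPKM + 1) was 0.958 between D2 and L1, while D2 reached 0.792 with D1 and 0.808 with D3, the libraries of its own variety. D1 and D3 had an r of 0.978, L2 and L3 0.966, and L1 had 0.932 with L2 and 0.927 with L3. These correlations run across genes, and genes are no independent replicates. Those of D2 with L2 and L3, and of L1 with D1 and D3, are not given. The summed FPKM of a library lay between 585381 and 600050, and the depth relative to D1 between 0.868 and 1.08, so D2 and L1 did not stand apart in either.

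A stem internode lengthens while its cells divide and expand, and its cells then mature, lay down thicker walls and form conducting tissue. A bulk sample of an internode therefore holds cells at several stages, and in bulk samples fewer cells of a type and less RNA per cell cannot be told apart. Of the 24 genes, 1 has a name in the castor RefSeq annotation: CysEP (LOC8278243), a papain-type cysteine endopeptidase with a C-terminal KDEL retention signal. CysEP is stored in ricinosomes, small bodies derived from the endoplasmic reticulum, and is known in castor from the programmed cell death of the endosperm. The other 23 carry only a LOC identifier in the sources used here, and no role is given to them. All 24 are protein-coding genes in that annotation and none overlaps another annotated gene.

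The levels of the 24 genes spanned a wide range where they were high. Their mean FPKM over D1, D3, L2 and L3 ran from 3.99 to 180 with a median of 30.5. A mean of at least that median over these 4 libraries was found in 25.8% of all genes. The mean of the 24 over D2 and L1 ran from 0 to 46.2 with a median of 3.73. Over the 23 genes with a level above 0 in D2 or L1, the fold between those means ran from 3.37 to 131, with a median of 6.94. The summed FPKM of the 24 genes was 1244 in D1, 1327 in D3, 895 in L2 and 1258 in L3 against 177 in D2 and 223 in L1. D2 and L1 were thus far below every other library, and L2 was the lowest of the remaining 4. In 8 genes both D2 and L1 were under 2 FPKM, whereas in 6 both were over 10 FPKM, so the set holds nearly silent genes as well as genes that were reduced but well expressed.

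**Figure D1:**
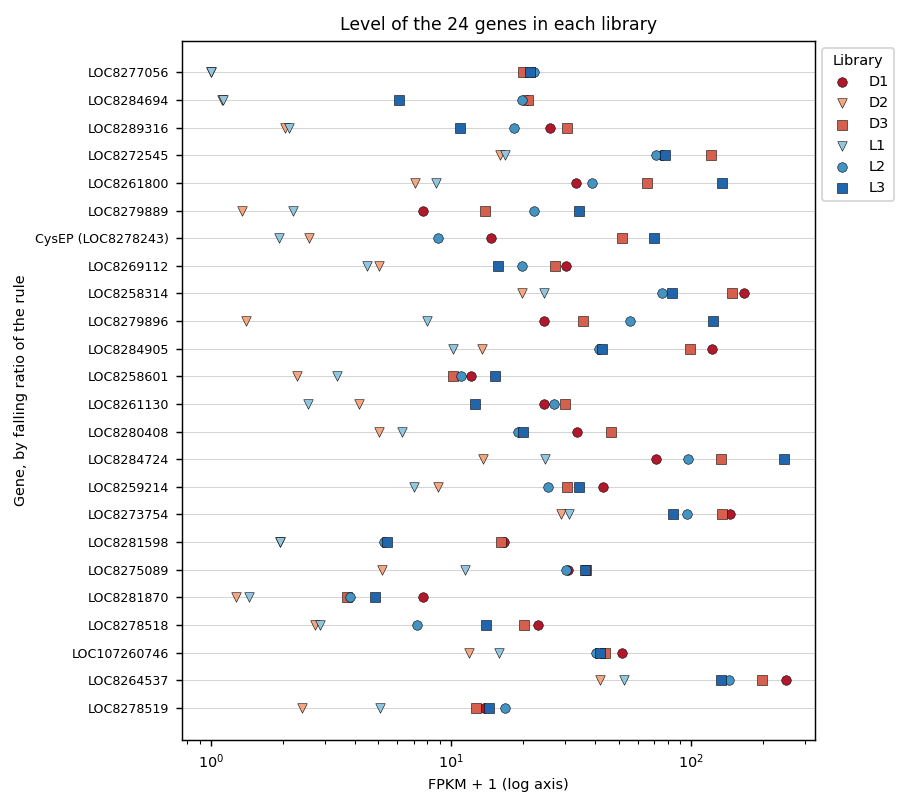
Level of each of the 24 genes in each of the 6 libraries, as FPKM + 1 on a log axis, with genes ordered by the ratio of the rule. Triangles are D2 and L1, which lie to the left of the other 4 libraries in every row because the rule required it. LOC8277056, in the top row, had both at 0 FPKM.

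LOC8277056 had the widest gap, with a ratio of 20.0 against 5.41 for the next gene. It was listed at 20.6 FPKM in D1, 19.0 in D3, 21.2 in L2 and 20.5 in L3, but at 0 in both D2 and L1. The 4 libraries with a level differed from each other by a coefficient of variation of 4.60%, the smallest among the 24 genes. A listed 0 can be a failed estimate in FPKM tables, so no fold is given. In all, 389 genes were listed at 0 in both D2 and L1, and of these LOC8277056 alone had at least 1 FPKM in each of the other 4 libraries. The next gene in that order had 0.484 FPKM in its lowest library.

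LOC8284694 and LOC8289316 were the other genes with a ratio of at least 5. LOC8284694 had 19.8 FPKM in D1, 20.1 in D3 and 18.9 in L2, but 5.11 in L3, 0.114 in D2 and 0.130 in L1. L3 was therefore intermediate, well under the other 3 high libraries and well over D2 and L1. LOC8289316 had 25.0 FPKM in D1, 29.5 in D3, 17.3 in L2, 9.95 in L3, 1.04 in D2 and 1.12 in L1. L3 was again the lowest of the high libraries, and both dwarf libraries were above both high-stalk ones.

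CysEP varied most among the libraries in which it was high. Its level was 13.7 FPKM in D1, 50.8 in D3, 7.84 in L2 and 69.5 in L3, against 1.56 in D2 and 0.925 in L1. L3 and D3 were high, D1 and L2 were much lower, and the varieties overlapped. The highest of the 4 was 8.86 times the lowest, and their coefficient of variation was 83.5%, against a median of 40.5% over the 24 genes. The gene annotated as the vacuolar processing enzyme VPE (LOC8272115), a protease of the vacuole that is not among the 24, showed a far smaller gap, with 207 FPKM in D1, 215 in D3, 206 in L2 and 235 in L3 against 147 in D2 and 168 in L1.

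LOC8261800 and LOC8284724 also peaked in L3. LOC8261800 had 32.2 FPKM in D1, 64.6 in D3, 37.8 in L2 and 133 in L3, with 6.12 in D2 and 7.69 in L1. LOC8284724 had 70.8 FPKM in D1, 132 in D3, 96.6 in L2 and 243 in L3, with 12.7 in D2 and 23.6 in L1. In both genes D3 was above D1 and L3 above L2, and D1 and D3 overlapped with L2 and L3. Across the 24 genes the highest library was D1 in 10, D3 in 6, L2 in 2 and L3 in 6, where the shares over the 15692 genes tested were 22.3%, 19.8%, 31.9% and 26.0%. The highest of the 4 was over 3 times the lowest in 9 of the 24 genes, against 17.1% of all genes tested.

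At the other end, 4 genes differed by less than 1.5-fold among D1, D3, L2 and L3: LOC8277056, LOC8275089, LOC107260746 and LOC8278519. LOC8275089 had 29.8 FPKM in D1, 35.7 in D3, 29.3 in L2 and 35.3 in L3, but 4.18 in D2 and 10.5 in L1. LOC107260746 had 50.8 FPKM in D1, 42.9 in D3, 39.2 in L2 and 40.8 in L3, with 10.9 in D2 and 14.9 in L1. In both, the 4 high libraries formed a narrow band and D2 was the lowest library of all.

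Because the rule set no order between varieties among D1, D3, L2 and L3, dwarf could be compared with high-stalk there, by limma on log2(FPKM + 1) over 15692 genes. All 24 genes were among those tested, which the rule made certain, and the rule used the lowest of these 4 values, so the comparison is not wholly independent of it. At an adjusted p below 0.05 with a fold change of 2 or more on the log2 scale in either direction, none of the 24 was called higher in dwarf, where 1.27% of all genes tested were called, and none lower, where 1.05% were called. At an unadjusted p under 0.05, 9 were higher (14.9% of all genes tested) and 2 lower (19.2%). By limma's adjusted p alone, 5 were higher in D1 and D3 (6.02% of all genes tested) and none lower (6.39%). The median log2 fold change of the 24, dwarf over high-stalk, was 0.33, beside -0.05 over all genes tested, and 17 of the 24 were above 0, beside 45.2% of all genes.

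**Figure D2:**
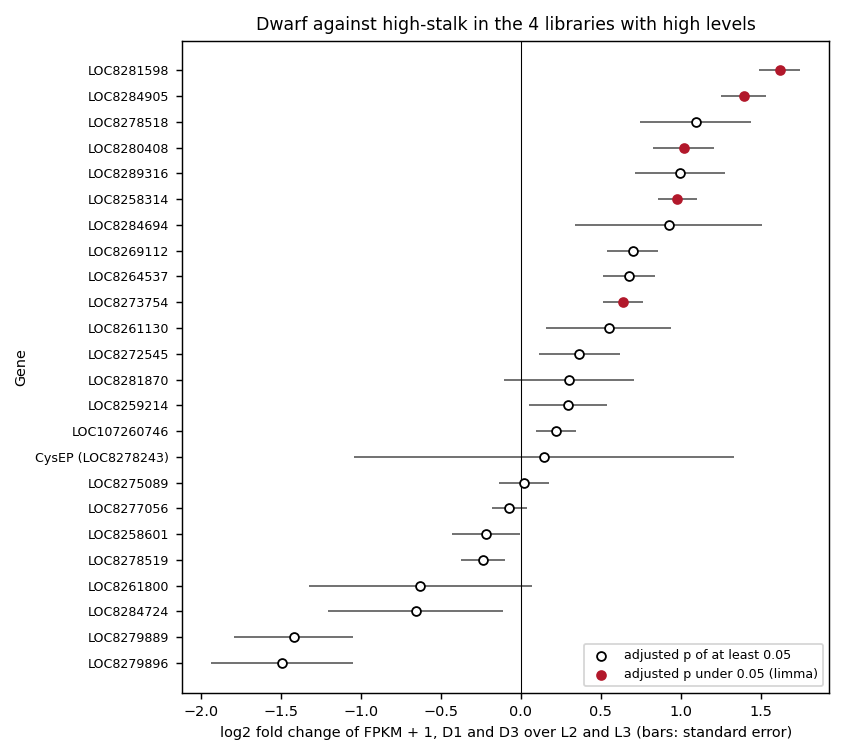
Log2 fold change of FPKM + 1 for D1 and D3 over L2 and L3, for each of the 24 genes, with bars of 1 standard error from limma. Filled points, from LOC8281598 with 1.62 to LOC8273754 with 0.64, have an adjusted p under 0.05 and all lie to the right of 0. CysEP has the widest bar.

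The 5 genes past the adjusted p were LOC8281598, LOC8284905, LOC8258314, LOC8280408 and LOC8273754. LOC8281598 had 15.6 FPKM in D1 and 15.2 in D3, 4.28 in L2 and 4.40 in L3, with 0.949 in D2 and 0.953 in L1. Its 6 values fell into 3 close pairs, with the high-stalk pair between the others. The log2 fold change of dwarf over high-stalk was 1.62 ± 0.13 (SE), with a limma adjusted p of 0.0175.

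LOC8284905 had 122 FPKM in D1, 98.2 in D3, 40.5 in L2 and 41.6 in L3, with 12.5 in D2 and 9.23 in L1. L2 and L3 lay close together at an intermediate level, under both D1 and D3 (log2 fold change 1.39 ± 0.14 SE, limma adjusted p = 0.0213). LOC8258314 had 165 FPKM in D1, 148 in D3, 75.0 in L2 and 82.7 in L3, with 18.9 in D2 and 23.5 in L1. The same 3 levels were seen (log2 fold change 0.98 ± 0.12 SE, limma adjusted p = 0.0264).

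LOC8280408 had 32.5 FPKM in D1, 45.5 in D3, 18.0 in L2 and 19.0 in L3, with 4.04 in D2 and 5.29 in L1 (log2 fold change 1.02 ± 0.19 SE, limma adjusted p = 0.0436). LOC8273754 had 145 FPKM in D1, 134 in D3, 95.5 in L2 and 83.1 in L3, with 27.9 in D2 and 30.0 in L1 (log2 fold change 0.64 ± 0.13 SE, limma adjusted p = 0.0491). In both genes the dwarf libraries lay above the high-stalk ones without overlap, and D2 and L1 were alike.

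Each of these 5 calls was lost when certain single libraries were left out. With each of D1, D3, L2 and L3 left out in turn, the adjusted p of LOC8281598 ran from 0.0404 to 0.0982 and stayed under 0.05 only without L3, that of LOC8284905 from 0.0563 to 0.0986, of LOC8258314 from 0.0558 to 0.150, of LOC8280408 from 0.0978 to 0.136 and of LOC8273754 from 0.0786 to 0.271. In these fits 1 variety is a single library, which is assumed to vary like the other variety, and the log2 fold changes of all 5 genes stayed above 0.

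Of the 24 genes, 11 had both dwarf libraries above both high-stalk libraries, an arrangement found in 29.5% of all genes tested. Beside the 5 genes above these were LOC8284694, LOC8289316, LOC8269112, LOC8264537, LOC8278518 and LOC107260746, with limma adjusted p from 0.0603 to 0.331. LOC8264537 was the most abundant of the 24, at 248 FPKM in D1, 197 in D3, 144 in L2 and 132 in L3, with 40.8 FPKM left in D2 and 51.6 in L1. LOC8269112 had 29.1 FPKM in D1, 26.1 in D3, 18.7 in L2 and 14.7 in L3, with 4.01 in D2 and 3.50 in L1. Both genes thus showed a modest step between varieties beside the wide step to D2 and L1.

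In 10 genes the varieties overlapped, with log2 fold changes from -0.66 to 0.55 and limma adjusted p from 0.367 to 0.943. LOC8272545 had 75.0 FPKM in D1, 121 in D3, 70.6 in L2 and 77.0 in L3, with 15.0 in D2 and 15.9 in L1, so that D3 stood above the rest. LOC8261130 had 23.4 FPKM in D1, 28.8 in D3, 25.8 in L2 and 11.7 in L3, with 3.15 in D2 and 1.54 in L1, so that L3 was the low one of the 4. LOC8259214 had 42.1 FPKM in D1, 29.4 in D3, 24.3 in L2 and 33.3 in L3, with 7.83 in D2 and 6.01 in L1. No library stood apart among its 4 high values.

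The least abundant of the overlapping genes were LOC8258601 and LOC8281870. LOC8258601 had 11.1 FPKM in D1, 9.27 in D3, 10.0 in L2 and 14.3 in L3, with 1.29 in D2 and 2.35 in L1. LOC8281870 had 6.63 FPKM in D1, 2.68 in D3, 2.81 in L2 and 3.85 in L3, with 0.281 in D2 and 0.439 in L1. D3 was the lowest of the 4 high libraries in both genes. LOC8277056, LOC8261800, LOC8284724, LOC8275089 and CysEP, given above, complete the 10.

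Both dwarf libraries were below both high-stalk libraries in 3 of the 24 genes, against 37.0% of all genes tested. LOC8279889 had 6.68 FPKM in D1, 12.9 in D3, 21.2 in L2 and 33.2 in L3, with 0.349 in D2 and 1.21 in L1 (log2 fold change -1.42 ± 0.37 SE, limma adjusted p = 0.0783). LOC8279896 had 23.5 FPKM in D1, 34.6 in D3, 54.7 in L2 and 123 in L3, with 0.404 in D2 and 6.99 in L1 (log2 fold change -1.49 ± 0.44 SE, limma adjusted p = 0.0964). The 6 libraries took the same order in both genes, D2, L1, D1, D3, L2 and L3 from low to high. LOC8278519 had 12.8 FPKM in D1, 11.7 in D3, 15.8 in L2 and 13.5 in L3, with 1.40 in D2 and 4.05 in L1, a far smaller step (log2 fold change -0.24 ± 0.14 SE, limma adjusted p = 0.298).

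LOC8279889 and LOC8279896 lie in a run of 8 consecutive measured genes that were all lower in D2 and L1 than in each of the other 4 libraries. The run was found after the values were seen, by going along 18333 measured genes in the order of the RefSeq annotation. It is the longest such run and the next longest holds 5 genes, where 14.8% of all genes have this arrangement. The run goes from LOC8279897 through LOC8279896, LOC8279895, LOC8279894, LOC8279891, LOC8279890 and LOC8279889 to LOC8279887. The 6 genes of the run that are not among the 24 fell short of the rule, with ratios from 1.45 to 2.21. In each of them L1 was less low than D2.

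All 8 genes of the run rose in the order D2, L1, D1, D3, L2 and L3. That order was found in 67 of all genes tested (0.427%) and, among the 24, in no gene outside the run. Any gene in this order has all 4 libraries above D2 and L1, by which the run was found and which 2795 of all genes have. The 0.427% is therefore no fitting background for the run. The summed FPKM of the 8 genes was 200.4 in D1, 374 in D3, 990.0 in L2 and 2123 in L3 against 6.32 in D2 and 106 in L1. LOC8279897, the most abundant, had 47.1 FPKM in D1, 88.8 in D3, 277 in L2 and 551 in L3 against 0.836 in D2 and 30.6 in L1. LOC8279894 had 27.2 FPKM in D1, 41.9 in D3, 162 in L2 and 293 in L3 against 0.185 in D2 and 14.4 in L1. D2 was nearly silent in both, L1 was the lowest of the others, and L2 and L3 were far above both D1 and D3.

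In the limma comparison of D1 and D3 with L2 and L3, LOC8279894 (log2 fold change -2.65 ± 0.37 SE, adjusted p = 0.0284), LOC8279897 (-2.58 ± 0.47 SE, adjusted p = 0.0420) and LOC8279891 (-2.55 ± 0.40 SE, adjusted p = 0.0329) were called lower in dwarf. The other 5 genes of the run had an adjusted p from 0.0601 to 0.0964, and the log2 fold changes of the 8 ran from -2.65 to -1.42. All 3 calls were lost with any library of the fit left out, with an adjusted p from 0.0595 to 0.162. Just outside the run, LOC8279898 (10.5 FPKM in D1, 92.6 in D3, 209 in L2 and 304 in L3 against 78.2 in D2 and 44.1 in L1) and LOC8279886 (2.00 in D1, 19.1 in D3, 53.7 in L2 and 84.3 in L3 against 17.0 in D2 and 6.46 in L1) kept the high levels of L2 and L3. There D1, not D2, was the lowest library. Whether near-identical copies within the run share reads was not examined.

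Elsewhere, 1 pair of the 24 genes is adjacent in the annotation, LOC8278518 and LOC8278519. LOC8278518 had 22.1 FPKM in D1, 19.2 in D3, 6.26 in L2 and 13.1 in L3, with 1.72 in D2 and 1.85 in L1. The neighbours differed in the order of the high libraries, D1 being the highest in LOC8278518 and L2 the highest in LOC8278519. Of 92 measured genes within 2 places of a gene of the 24, 20 (21.7%) had all 4 libraries above D2 and L1, beside 14.8% of all genes. Without the genes of the run described above this was 14 of 86 (16.3%), near that share. LOC8281871, next to LOC8281870, came nearest to the rule among these neighbours outside the run, with 87.8 FPKM in D1, 103 in D3, 54.0 in L2 and 67.3 in L3 against 19.8 in D2 and 24.6 in L1. LOC8269110, near LOC8269112, had the opposite pattern, with 67.1 FPKM in D2 and 110.2 in L1 against 0.892 in D1, 0.289 in D3, 0.0897 in L2 and 0.166 in L3.

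D2 and L1, which come from different varieties, were close to each other in most of the 24 genes. On FPKM + 1 they were within 1.5-fold in 18 genes, a share below the 84.6% over all genes tested. D2 was below L1 in 18 genes (50.8% of all genes tested), above it in 5 (49.2%) and equal to it in LOC8277056. The median log2 difference of D2 from L1 was -0.14, beside -0.01 over all genes tested, and the range was from -2.51 in LOC8279896 to 0.71 in LOC8261130. With 1 library a variety in this comparison, no test was made.

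The comparisons of the varieties that include L1, or D2 and L1, use the values that chose the genes and are given as a description. With D1 and D3 set against all 3 high-stalk libraries, over 15925 genes, none of the 24 passed both limma thresholds (1.34% of all genes tested higher in dwarf, 1.19% lower) or the adjusted p alone (6.96% higher, 6.17% lower). The lowest adjusted p was 0.0531, and 5 were higher at an unadjusted p under 0.05 (15.8% of all genes tested) and none lower (19.3%). With all 6 libraries, over 16236 genes, none passed (0.0% higher, 0.0123% lower), and log2 fold changes ran from -1.83 to 1.08 with adjusted p from 0.757 to 0.997. None of the 24 had an unadjusted p under 0.05 in that fit, where 5.14% of all genes tested were higher and 4.17% lower at that p, so little can be read from it about the 24.

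Some other genes that the study names had the opposite pattern in the same libraries. The study named its cell division genes and expansins as lower in D1 and D3 than in L1, L2 and L3. It named its lignin and peroxidase genes as higher in D1 and D3. Their levels in these libraries are therefore in part a result of that choice, in which D2 took no part. The 8 cell division genes that the study names, none of them among the 24, summed to 6.05 FPKM in D1, 6.34 in D3, 18.5 in L2 and 20.5 in L3 against 61.7 in D2 and 54.9 in L1, and D2 and L1 were above the other 4 libraries in 8 of 8. The 3 expansins, proteins that loosen the cell wall, summed to 86.5 FPKM in D1, 58.5 in D3, 153 in L2 and 272 in L3 against 549.6 in D2 and 342 in L1, with D2 and L1 above the rest in 2 of 3. The 5 genes of lignin synthesis and peroxidases were high only in D1 and D3, with sums of 22.0 and 21.0 FPKM, against 4.08 in D2, 2.54 in L1, 2.06 in L2 and 3.06 in L3. The actin gene that the study used as its qPCR control (LOC8269707) was level, from 55.4 to 60.9 FPKM. Another gene that RefSeq names actin, LOC8273907, was not level. It had 340 FPKM in D1, 321 in D3, 564 in L2 and 497 in L3, with 555 in D2 and 571 in L1. The share of all genes with D2 and L1 above the other 4 libraries was not counted, so 8 of 8 and 2 of 3 have no background beside them. The part that the stage or cell makeup of the tissue has in the low levels of the 24 genes in D2 and L1 was not tested.

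**Figure D3:**
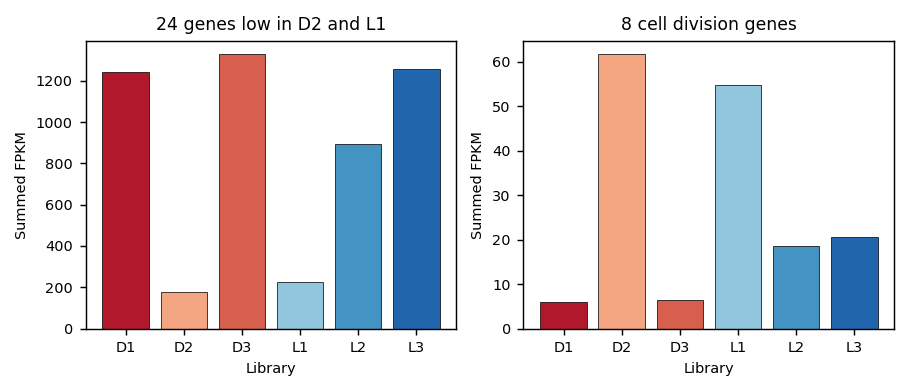
Summed FPKM per library of the 24 genes (left) and of the 8 cell division genes that the study names (right), each panel on its own scale from 0. The rule chose the 24, and the study named the 8 as lower in D1 and D3 than in L1, L2 and L3. D2 and L1 have the shortest bars on the left, at 177 and 223, and the tallest on the right, at 61.7 and 54.9.

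Of 33 genes that the study names by identifier and that were measured, none was among the 24. All 4 libraries were above D2 and L1 in 2 of them, beside 14.8% of all genes. The ratios were 1.18 for HP4 (LOC8285833) and 1.03 for PGLR (LOC107262217). Many of the 33 were named for a difference between D1 and D3 and L1, L2 and L3. Of 65 castor genes with a gene name beside the LOC identifier in RefSeq, 12 had all 4 libraries above D2 and L1, beside the same 14.8%. CysEP alone met the rule, which took 24 of 18875 genes. The next was SUT1 (LOC8262746), a sucrose transporter of the plasma membrane, with a ratio of 1.60.

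Near the threshold of 2.5, LOC8278519 had a ratio of 2.51, while LOC8264537 and LOC107260746 both had 2.54. Just outside, LOC8259555 had a ratio of 2.45, with 8.87 FPKM in D1, 13.7 in D3, 7.45 in L2 and 7.36 in L3 against 2.42 in D2 and 0.976 in L1. LOC8267171 had 2.40 and LOC8284550 had 2.37. The genes on either side of the threshold thus differed little.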

How the data were processed

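RNA was captured with oligo(dT) beads and sequenced on an Illumina HiSeq instrument. The authors computed FPKM per gene and library, and the deposited FPKM values of the 6 libraries, not pooled, were the input here. Not given in the sources used here are the genome build, the annotation, the aligner, the counting tool and the use of strand, and the DESeq2 test of the authors needs counts, which FPKM does not hold.

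The 24 genes, the lists and the tests were chosen with earlier results of these data known. FPKM + 1 was used in the rule, the limma fits, the correlations and the comparison of D2 with L1. Sums, means, folds between means, coefficients of variation and the highest over the lowest library used FPKM itself. A gene entered a fit if 2 or more of its libraries had 1 FPKM or more. Tests were made in R 4.3.3 by limma 3.58.1, with its variance trend and p-values adjusted by Benjamini-Hochberg, and calls needed an adjusted p below 0.05 with a log2 fold change of 2 or more in either direction. The rest used matplotlib 3.10.9, numpy 2.4.6, pandas 2.3.3 and Python 3.11.15. The code was tested on simulated data.

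By rule, named genes are members with a name, the 10 with the highest level, the 10 with the largest ratio and the 3 genes on each side of the threshold. Other members, neighbouring genes and other genes with a RefSeq name, such as VPE and SUT1, were named after their values were seen. The table holds 18875 rows with 18781 distinct names, each row kept as a gene. RefSeq (assembly ASM1957865v1) matched 18431 rows and all 24 members, and was used only for names, gene type and order. Lists by gene description, protein features and promoter motifs were not analysed here. FPKM gives no read number, so no counting interval is given. Relative depth was read from ratios of values under 0.5 FPKM. Alternatives changed the rule, the pseudocount, the filter, the scaling and the variance model, or left out a library.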

Additional observations from a re-analysis of the deposited data

How the results depend on the processing

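The rule took 24 genes. A ratio of at least 2 took 61 genes, a ratio of at least 3 took 14, and adding 0.1 FPKM in place of 1 took 52. Adding 0.5 took 34, median-ratio scaling 24 and quantile normalization 35. A lower ratio or a smaller added value cannot drop a gene, so all 24 had to be in the sets of 61, 52 and 34. After quantile normalization 23 of them were kept. In the limma comparison of D1 and D3 with L2 and L3, the 5 members past the adjusted p became 3 with no filter on low values and 3 with no mean-variance trend, and 0 to 2 with a library left out (0 without D1, D3 or L2). None passed both thresholds under any alternative run. Over all genes, 200 higher and 164 lower became 319 and 254 with a pseudocount of 0.1, 0 and 0 without D1 or without L2, 47 and 90 without D3, and 177 and 68 without L3. LOC8273754 lost its call with a pseudocount of 0.1, no filter, a mean FPKM of at least 5, no trend or robust variances (adjusted p from 0.0516 to 0.0595), and LOC8280408 with no filter or no trend (0.0514 and 0.0513). LOC8279897 lost its call with no filter (0.0519). LOC8278518 reached an adjusted p of 0.0462 without L3. The median log2 difference of the members stayed above 0, from 0.25 to 0.54. With D1 and D3 against all 3 high-stalk libraries, 0 members were past the adjusted p without L2 or without L3. Leaving L1 out of it gives the comparison of D1 and D3 with L2 and L3 again, with the same 5 members.

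Whether the replicate numbers pair the samples was not settled by these values. Deviations from the variety means correlated at -0.47 for D1 and L1, -0.55 for D2 and L2 and 0.33 for D3 and L3. For D2 and L1, which carry different numbers, the value was 0.63. The deviations of a variety sum to 0, so these values depend on each other. With the replicate number as a block, 0 members and 0 genes were called with D1 and D3 against all 3 high-stalk libraries, and 0 and 0 with all 6 libraries. The median log2 fold change of the members was 1.41 and 0.27 in these fits. D1, D3, L2 and L3 share only the number 3, so no block could be fitted there.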

Other observations

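Among castor genes with a RefSeq name that missed the rule but were lower in D2 and L1 than in every other library, the nitrate reductase gene NIA had 184 FPKM in D1, 149 in D3, 255 in L2 and 160.1 in L3 against 82.5 in D2 and 100.3 in L1. The phosphoenolpyruvate carboxylase gene PPC4 had 301 FPKM in D1, 242 in D3, 232 in L2 and 258 in L3 against 170.0 in D2 and 149 in L1. The ratio of the rule was 1.36 for PPC4 and 1.02 for PPC1. For PPC3 it was 0.573, and there D2 and L1 were both above L2 and L3. NIA and PPC4 were picked from several genes with this arrangement, and these are values with no test.

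LOC8281597, next to LOC8281598, had 468 FPKM in D1, 546 in D3, 223 in L2 and 149 in L3 against 91.6 in D2 and 51.8 in L1. It shared with its neighbour the order of the 3 pairs of libraries, with D1 and D3 above L2 and L3 and these above D2 and L1.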
